A study of Mus musculus with 3 samples.

Results

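Among the blood endothelial cells of mouse Peyer's patches, the lymphoid organs in the wall of the small intestine, a small population carried UMIs of Bmp2, Ssu2, Nebl, Alpl and Tmem158 and is described here as the Bmp2 Alpl Ssu2 endothelial cells. A cell was a member where the summed UMIs of these 5 genes reached 4, among cells with at least 500 genes, 1000 UMIs and at most 10% mitochondrial UMIs that also passed endothelial, fibroblast and lymphatic gates. Endothelial cells had at least 3 UMIs over Pecam1, Cdh5, Egfl7, Emcn and Flt1, more than their UMIs over Col1a1, Col1a2, Dcn, Pdgfra and Lum, and at most 1 UMI over Mmrn1, Reln and Prox1. The rule took 200 of 7048 gated endothelial cells, out of 11466 cells of sufficient quality and 12480 barcodes. A UMI is a molecular tag that counts 1 captured transcript once. Because the 5 genes chose the cells, their own levels are given as a description without a test.

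Droplet-based single-cell RNA sequencing of sorted Peyer's patch endothelium was deposited as 3 libraries, 1 of control mice and 2 of EC-iCOUPOE mice. The control was labelled WT, of strain C57BL/6, and since the study names Cre-negative controls and WT mice apart, which of them the library holds was not given in the sources used here. EC-iCOUPOE mice carried the CDH5(PAC)CreERT2 transgene and COUP-TFIIOE/OE, so that tamoxifen switched on COUP-TFII, encoded by Nr2f2, in cells that use the Cdh5 promoter, which blood and lymphatic endothelium share. All animals were 6 to 10 weeks old, males and females were processed together, and cells were isolated 14 to 19 days after tamoxifen; the number of mice behind each library was not given in the sources used here. The 3 libraries held 17341398, 17417260 and 3548983 UMIs, in the order control, EC-iCOUPOE replicate 1 and EC-iCOUPOE replicate 2, which is kept for every group of 3 values here. Members numbered 67, 83 and 50 cells with medians of 2635, 4188 and 2846 UMIs and 1334, 1910 and 1363 genes a cell. Their summed UMIs were 207540, 417870 and 146117, so that 1 UMI stood for 4.82, 2.39 and 6.84 CPM, the UMI count scaled to a fixed total over the cells of a population. The control and EC-iCOUPOE replicate 2 libraries shared 12 cell barcodes, and the other pairs shared 0.

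COUP-TFII specifies veins, while Notch signalling and its repressor HEY1 mark arteries and capillaries. NKX2-3 is the homeodomain factor of intestinal endothelium, and the addressin MAdCAM1, made by venules of gut lymphoid tissue, captures lymphocytes from blood. BMP2 is a secreted ligand that signals through BMP receptors and SMAD proteins and induces the ID genes, and ALPL is tissue-nonspecific alkaline phosphatase, which releases phosphate outside the cell. Nebl encodes nebulette, an actin-binding protein. TMEM158 is a membrane protein, and SSU2 is named here without a role.

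The label of the transgenic line held in the cells themselves. Nr2f2 measured 67.5, 1431 and 1033 CPM in the members (14, 598 and 151 UMIs), and both EC-iCOUPOE libraries lay far above the control. The log2 ratios to control were 4.41 [3.65, 5.29] and 3.94 [3.15, 4.84], with 95% counting intervals, and averaged 4.17 ± 0.33 (SD, n = 2). The control has 1 library and so no replicate, and every such interval covers counting error only, not the spread between mice. Capillary cells had Nr2f2 log2 ratios of 4.55 and 3.89, close to those of the members.

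Of the 5 naming genes 1 was missing from the control members. Pecam1, Cdh5, Egfl7, Emcn and Flt1, which the gate used and which are therefore no check of identity, summed to 3508, 3750 and 3655 CPM. Summed lymphocyte markers reached 0, 4.79 and 0 CPM, with Ptprc and Cd3e at 0 throughout, none of which the gates used. Of 6 lymphatic markers, which summed to 19.3, 28.7 and 54.8 CPM, Flt4 was the most abundant, Pdpn was at 0, and Mmrn1, Reln and Prox1 were limited by the gate. Pericyte and smooth muscle markers, which no gate removed, summed to 939.6, 2589 and 253 CPM. Bmp2 was at 0 UMIs in the 67 control members, which allows a level of up to 14.5 CPM at 3 UMIs, and at 296 and 141 UMIs in the EC-iCOUPOE members. The control members were therefore chosen by Ssu2, Nebl, Alpl and Tmem158 alone, and the name Bmp2 does not describe them.

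Few members had UMIs of all 5 genes, and at counts this low a missing UMI does not show that a gene was silent. Of the members, 11, 7 and 4 cells had UMIs of 1 of the 5 genes only, 23, 33 and 11 had 2, 28, 29 and 23 had 3, 5, 10 and 10 had 4, and 0, 4 and 2 had all 5. At the threshold itself, 34, 25 and 16 members had exactly 4 UMIs, and 69, 58 and 15 gated cells just outside had 3. Scores of 10 or more occurred in 5, 18 and 13 members and reached 18, 30 and 25. Members overlapped the arterial rule (Gja5 and Bmx, at least 2 UMIs) in 8, 5 and 2 cells, and 1, 10 and 6 members had the 3 Rgcc UMIs used to choose capillary cells.

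Windows of 250 bases before the start site were taken for the genes whose regulation is at issue, from RefSeq on GRCm38.p6, and 5 of the 7 genes looked up had one: Ssu2, Nebl, Alpl, Madcam1 and St6gal1. Bmp2 (chr2:133552159-133562885, plus strand) and Tmem158 (chr9:123259053-123260764, minus strand) are named only. The letters searched on both strands were TGACCC, the element bound by 1 COUP-TFII subunit, CACTT, the core bound by NKX2 factors, and CACGTG, an E-box that reads the same on both strands. Capitals mark the letters found.
Ssu2, E-box, chr6:112388192-112388221, minus strand: ctctagaacttcCACGTGagcttggcaagt
Alpl start 1, COUP-TFII element, chr4:137796605-137796634, minus strand: cgcaGGGTCAggcacaggaagacaaccatc
Alpl start 2, COUP-TFII element, chr4:137766476-137766505, minus strand: ggtcacagccacTGACCCcaggctgcagag
Nebl start 2, NKX core, chr2:17526239-17526268, minus strand: cacctaggggctgCACTTtcaattaactca
Madcam1, COUP-TFII element, chr10:79664309-79664338, plus strand: ccatggTGACCCacctccagcttttagctt
Madcam1, NKX core, chr10:79664446-79664475, plus strand: tctgcctcctacaAAGTGggggtcgggctg
The sites of the rule genes and of Madcam1 are shown because they hold the letters of the overexpressed factor, of its NKX2 partner or of the HEY family E-box. The windows of St6gal1, which had too few UMIs for a ratio, held NKX cores 250, 84 and 60 bases before the start that are not shown. The printed sites lay 186 (Ssu2), 246 and 18 (Alpl), 125 (Nebl), 244 and 100 (Madcam1) bases before the start. The same letters are common: of all 32851 windows of this length, 11.6% held the COUP-TFII element, 40.7% the NKX core and 6.02% the E-box. A match of letters is a description of the sequence and not evidence of binding. The paper describes elements that bind both factors in the Madcam1 promoter and in an intron of St6gal1. By the paper's description, its Madcam1 reporter lacking the element still began more than 250 bases before the start. The Madcam1 sites printed here are therefore not taken to be that element. Whether the paper counts from the same start, and whether the windows reach the St6gal1 element, was not examined.

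Across populations the rule genes, other than Bmp2 in the control, were concentrated in the members, as the choice of cells fixes. Bmp2 measured 0, 708 and 965 CPM in members, against 4.85, 21.5 and 0 CPM in arterial and 0, 1.25 and 2.73 CPM in capillary cells. Ssu2 measured 877, 239 and 684 CPM in members and 105, 23.8 and 40.9 CPM in capillary cells. Alpl, at 357, 43.1 and 151 CPM in members, was at 24.2, 0 and 42.5 CPM in arterial cells. In words, Bmp2 led in the EC-iCOUPOE libraries and Ssu2 in the control, and Alpl was lowest in EC-iCOUPOE replicate 1. Nebl (284, 328 and 609 CPM) and Tmem158 (231, 194 and 383 CPM) were highest in EC-iCOUPOE replicate 2.

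**Figure D1:**
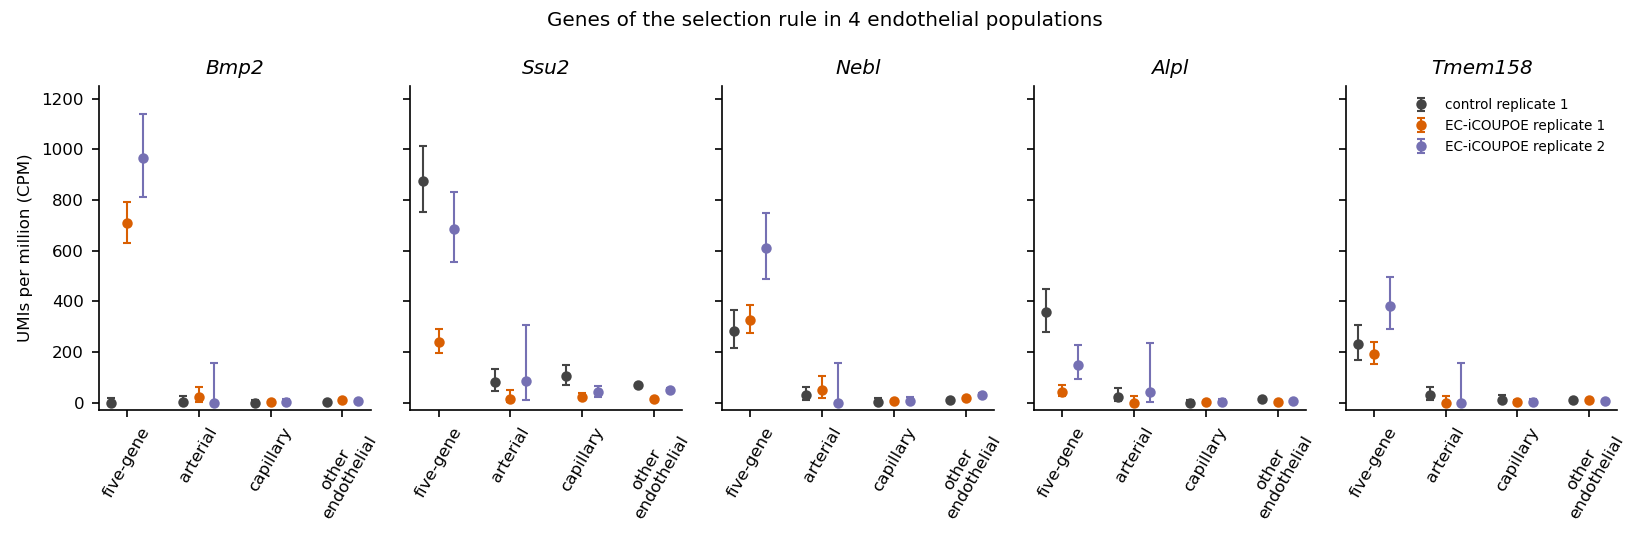
CPM, with 95% Poisson intervals for counting error, of Bmp2, Ssu2, Nebl, Alpl and Tmem158 in the Bmp2 Alpl Ssu2 cells, arterial, capillary and other endothelial cells of each library. Bmp2 is at 0 in the control members and at 708 and 965 CPM in the 2 EC-iCOUPOE libraries.

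Bmp2 transcripts were present in the control library, outside these cells. Cells of sufficient quality outside the endothelial gate held Bmp2 at 88.3, 15.2 and 62.0 CPM, in the control as 752 UMIs in 577 of 3004 cells. Other gated endothelial cells measured 1.48, 10.9 and 7.84 CPM. Cells with lymphocyte markers, in which the gene should be silent, had a Bmp2 UMI in 0 of 13, 0 of 8 and 1 of 4 cells, too few to set a background. To remove Bmp2 from the choice, members were taken again with at least 4 UMIs over Ssu2, Nebl, Alpl and Tmem158, which gave 67, 42 and 39 cells. In them Bmp2 was at 0, 661 and 964 CPM, with UMIs in 0 of 67, 27 of 42 and 26 of 39 cells. Set against the limit of 3 UMIs in the control, the level was at least 45.7-fold higher in EC-iCOUPOE replicate 1 and at least 66.7-fold higher in replicate 2.

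Sox17 and Stmn2 were lowest in cells with no UMI of Ssu2, Nebl, Alpl and Tmem158, a score that left Bmp2 out. The arterial markers Gja5 and Bmx were also higher at a score of 1 than at 0 in each library. Over gated cells with 0, 1, 2, 3, 4, 5 to 9 and 10 or more such UMIs, Sox17, an arterial transcription factor, measured 194, 546, 639.8, 1006, 826, 1279 and 1274 CPM in the control. The values were 188, 420.5, 514, 718, 592, 821 and 906 CPM in EC-iCOUPOE replicate 1 and 352, 807, 558, 663, 1226, 1022 and 799 CPM in replicate 2. The lowest value stood at a score of 0 in each library. Stmn2, a microtubule-binding protein, measured 70.9, 284, 482, 603, 523, 1055 and 1098 CPM, 131, 541, 700.0, 1126, 1320.1, 984 and 1375 CPM and 124, 408, 529, 933, 626, 1273 and 1476 CPM over the same steps. Gja5 measured 21.9, 74.9, 118, 133, 45.9, 92.3 and 0 CPM in the control. It measured 7.75, 26.6, 41.3, 28.1, 15.2, 17.1 and 0 CPM in EC-iCOUPOE replicate 1 and 9.80, 20.4, 19.9, 24.6, 0, 0 and 0 CPM in replicate 2. Bmx measured 6.69, 55.7, 44.9, 90.1, 82.6, 65.9 and 87.8 CPM in the control, the last of these on 2 UMIs. It measured 6.47, 23.5, 43.6, 23.5, 15.2, 17.1 and 0 CPM in EC-iCOUPOE replicate 1 and 9.80, 40.8, 39.9, 123, 0, 110 and 0 CPM in replicate 2. The last steps held 22767, 32010 and 16262 UMIs in all, too few for a 0 to show a level below that of the first step. Bmp2 went from 9.62 to 843 CPM and from 5.16 to 1906 CPM between the first and the last step in the EC-iCOUPOE libraries, while the control was at 0 in all 6 steps above 0. The steps of 10 or more held 5, 4 and 5 cells, those of 4 held 17 and 14 cells in the EC-iCOUPOE libraries, and that of 3 held 16 in replicate 2. Median UMIs of a cell were also higher at the last step than at the first. They were 4315 against 2392 in the control, 8146 against 3209.5 in EC-iCOUPOE replicate 1 and 3049 against 2307 in replicate 2. Glycam1, a transcript of high endothelial venules, measured 36657 CPM at a score of 0 and 11005 CPM at 1 in the control. In EC-iCOUPOE replicate 1 it measured 1038 and 32.1 CPM at these scores. The part of depth and of such venule cells in the pattern was not tested.

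**Figure D2:**
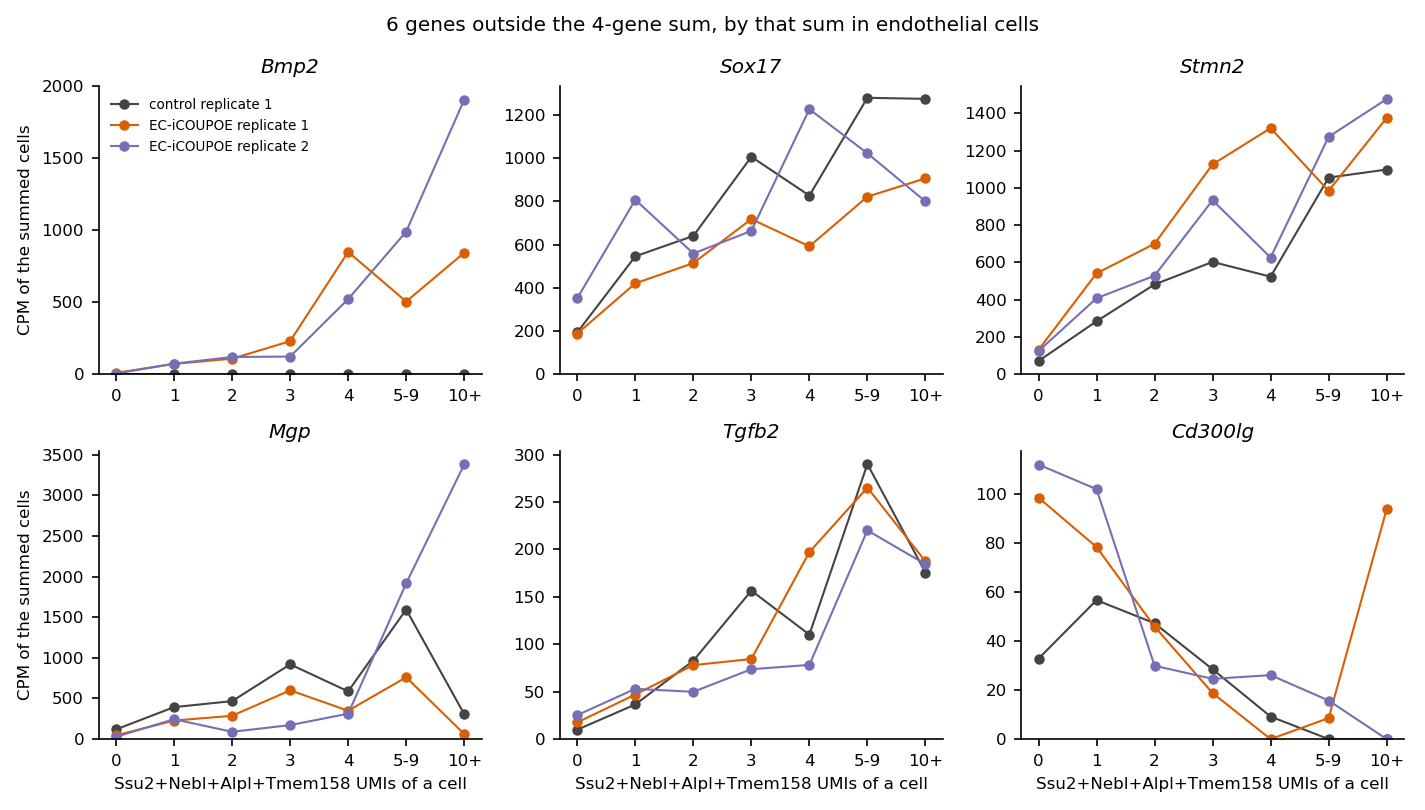
CPM of Bmp2, Sox17, Stmn2, Mgp, Tgfb2 and Cd300lg against the UMIs of Ssu2, Nebl, Alpl and Tmem158 in a cell, 1 line for each library. Sox17 and Stmn2 are lowest at a score of 0 in each library, and Bmp2 stays at 0 in the control above that score.

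The next comparison asked how the members differ from Rgcc capillary cells (at least 3 Rgcc UMIs, 0 Gja5 and Bmx UMIs and at most 1 UMI of the 5 genes), of which there were 119, 234 and 144. Members were higher in arterial transcripts and lower in capillary ones. The comparison cells were chosen for Rgcc and against Gja5 and Bmx, while 8, 5 and 2 members met the arterial rule. That choice itself bears on both directions, and its part in the result was not tested. Of 5577 genes tested with edgeR on UMIs summed per library, 135 were higher (2.42%) and 100 lower (1.79%), at an adjusted p under 0.05 and at least 2-fold in each library. All ratios below are means of 3 per-library log2 ratios with SD, n = 3, and a library at 0 was set to 3 UMIs, so the size of a ratio that rests on a 0 is a lower bound.

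Of the arterial list, 9 of 12 genes tested were higher and 0 lower, with a median log2 ratio of 2.54 beside -0.03 over all genes tested. Mgp, a matrix protein that inhibits BMP ligands and calcification, measured 925, 448 and 1389 CPM in members and 13.1, 2.50 and 0 CPM in capillary cells. Its log2 ratio was 7.01 ± 0.76 with an adjusted p of 1.2e-05. Stmn2 measured 781, 1307 and 1184 CPM against 39.4, 75.1 and 57.2 CPM (4.27 ± 0.13, adjusted p 3.2e-06). The gap junction gene Gja4 (2.74 ± 0.55), the elastic fibre genes Fbln5 (3.35 ± 1.13) and Eln (2.52 ± 0.66), Sema3g (2.86 ± 0.43) and Sox17 (1.70 ± 0.34) rose with them. Vegfc, a growth factor for lymphatic vessels, and Edn1, the vasoconstrictor endothelin 1, were higher at 2.31 ± 0.66 and 2.56 ± 0.86. Outside the list, the higher genes with the largest ratios included Efhd1 (5.03 ± 0.96), the proprotein convertase Pcsk5 (4.66 ± 1.20), S100a4 (4.25 ± 0.91), Cystm1 (4.07 ± 0.82), Eps8l2 (3.72 ± 0.30) and the cathepsin Ctsh (3.27 ± 0.12).

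Of the capillary list, 7 of 11 genes tested were lower and 0 higher, with a median of -1.32. Aplnr, the apelin receptor, measured 9.64, 47.9 and 13.7 CPM in members and 276, 576 and 409 CPM in capillary cells (-4.44 ± 0.74, adjusted p 3.7e-05). Cd300lg measured 4.82, 14.4 and 13.7 CPM against 194, 228 and 207 CPM (-4.41 ± 0.80). Both genes were lower in the members of each library. The carbonic anhydrase Car4 (-3.75 ± 0.97), the lipase anchor Gpihbp1 (-4.50 ± 2.13), the fatty acid transporter Cd36 (-1.32 ± 0.14), the VEGF receptor Kdr (-1.32 ± 0.37) and Scgb3a1 (-2.85 ± 1.71) were also lower. The tip and progenitor list had 4 of 8 genes lower, Apln, Esm1, Nid2 and Trp53i11, and the actin-bundling gene Fscn1 had the most negative mean of the named genes (-4.74 ± 0.43). Fam167b (-3.40 ± 0.12), the laminin gene Lamb1 (-3.33 ± 0.54), Ivns1abp (-3.02 ± 0.42) and the matrix gene Thbs1 (-3.81 ± 0.97) completed the lower genes with the largest ratios.

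The BMP pathway list, from which Bmp2 itself was left out, had 2 of 13 genes higher and 0 lower, with a median of 0.64. The inhibitory SMAD gene Smad6 measured 86.7, 69.4 and 47.9 CPM against 13.1, 15.02 and 10.9 CPM (2.36 ± 0.32, adjusted p 0.00237). Tmem100, induced by BMP9 and BMP10 in arterial endothelium, measured 260.2, 175 and 95.8 CPM against 39.4, 23.8 and 13.6 CPM (2.80 ± 0.077, adjusted p 8.8e-05). Both were higher in each library, the control included, in which members had no Bmp2 UMI. Id1, a BMP target, had a mean of 1.04 ± 0.58 (adjusted p 0.0106) and was not 2-fold in each library. Of the Notch pathway list 3 of 11 were higher, the ligand genes Jag1 (2.60 ± 0.30) and Jag2 (1.54 ± 0.30) and Sox17, and of the flow response list 3 of 8, Klf2 (1.21 ± 0.077), Klf4 (1.62 ± 0.30) and Edn1.

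Among secreted ligands 4 of 9 were higher and 1, Apln, lower. Tgfb2 measured 183, 182 and 144 CPM in members and 26.3, 38.8 and 21.8 CPM in capillary cells (2.58 ± 0.31). Dkk2, a modulator of WNT signalling, measured 169, 55.0 and 54.8 CPM in members and was at 0 UMIs in the capillary cells of each library, a mean log2 ratio of at least 3.57. In the venous list Vcam1 was higher (3.38 ± 0.92) and Nrp2 lower (-1.31 ± 0.21) among 10 tested. The dividing list was tested at Cdk1 alone, which was lower. Its 5 genes summed to 0, 33.5 and 20.5 CPM in members and 95.3, 234 and 65.4 CPM in capillary cells. Erythroid transcripts summed to 0, 0 and 47.9 CPM in members and 3.29, 1028 and 51.8 CPM in capillary cells. The part of either list in the result was not tested. The lists for barrier genes (0 of 10), phosphate and nucleotide handling (0 of 3), the addressin code (0 of 4) and immediate early genes (0 of 10) had no gene called. The immediate early genes had means above 0 in 10 of 10, with a median of 0.71 beside -0.03 over all genes, and summed to 24516, 14866 and 18786 CPM in members and 6123, 11707 and 18836 CPM in capillary cells, with Fos the most abundant in each. Their part in the values of Klf2, Klf4 and Edn1 was not tested.

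Mural markers moved with this comparison. Pericyte and smooth muscle genes summed to 939.6, 2589 and 253 CPM in members and 52.6, 169 and 19.1 CPM in capillary cells, with Acta2 or Rgs5 the most abundant, and 4 of 4 tested (Rgs5, Acta2, Myh11 and Notch3) were higher. Members with at least 2 mural UMIs numbered 9, 25 and 1. Without possible doublets, 221 genes were called and 175 of the 235 remained, while these 4 genes were no longer tested; with the 4-gene choice of cells 229 were called and 197 remained.

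Against the Gja5 and Bmx arterial cells (67, 35 and 9 cells), to ask what sets the members apart from arteries, few genes differed. Of 3614 genes tested, 14 were higher (0.387%) and 20 lower (0.553%), and of the arterial list 0 of 13 were called, with a median log2 ratio of -0.32 beside -0.07 over all genes. At an adjusted p under 0.05 alone, 73 genes were higher and 94 lower. Gja5 and Bmx themselves, which chose the comparison cells, averaged -3.82 ± 0.62 and -2.52 ± 0.89. The 9 arterial cells of EC-iCOUPOE replicate 2 held 23505 UMIs, so that 1 UMI there is 42.5 CPM.

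Tgfb2 was higher, at 183, 182 and 144 CPM in members and 53.3, 50.3 and 42.5 CPM in arterial cells (1.80 ± 0.052, adjusted p 6.9e-05). Efhd1, a calcium-binding protein of mitochondria, measured 67.5, 90.9 and 192 CPM against 0, 21.5 and 42.5 CPM (2.15 ± 0.07, adjusted p 0.00013). In EC-iCOUPOE replicate 2 the arterial value of either gene rests on 1 UMI. Fut8, a fucosyltransferase (2.58 ± 0.82), the cadherin Cdh13 (2.01 ± 0.10), Tppp3 (2.76 ± 0.85), Stmn1 (2.21 ± 0.74), the lipoxygenase Alox12 (1.78 ± 0.42) and Ifi27l2a (1.60 ± 0.53) rose as well. Pi16, a secreted protein, was at 0 UMIs in arterial cells of each library and at 72.3, 108 and 308 CPM in members, a mean log2 ratio of at least 1.97. The 6 fibroblast markers, of which the gate limited 5, summed to 111, 40.7 and 20.5 CPM in members, 96.9, 7.18 and 0 CPM in arterial and 88.7, 6.26 and 0 CPM in capillary cells, highest in the members of each library. Col1a2 was the most abundant in members of the first 2 libraries, while Col1a1, Col1a2 and Pdgfra had 1 UMI each in EC-iCOUPOE replicate 2. Of the 6 markers, 5, 2 and 3 were detected in members. Pdgfra was at 0 in the first 2 libraries and Dcn and Lum in the EC-iCOUPOE libraries, and the part of these transcripts in the result was not tested.

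Of the lower genes, Igfbp4, which binds insulin-like growth factors, measured 1243, 619.8 and 226 CPM in members and 2986, 3326 and 1489 CPM in arterial cells (-2.14 ± 0.77, adjusted p 4.4e-23). Cyp26b1, which degrades retinoic acid, measured 33.7, 31.1 and 47.9 CPM against 92.1, 144 and 553 CPM (-2.40 ± 1.05). The sulfotransferase gene Sult1a1 (-3.03 ± 0.91), Enpp6 (-2.23 ± 0.56), Egfl8 (-2.52 ± 1.36), the Notch ligand Dll1 (-2.16 ± 0.97) and Notch4 (-1.96 ± 0.85) were also lower. By list, 1 of 10 venous genes (Ackr1) and 1 of 11 Notch genes (Notch4) were lower, and 1 of 7 secreted ligands (Tgfb2) and 1 of 4 mural genes (Acta2) higher. The venous list summed to 3864, 3082 and 2361 CPM in members and 9839, 4058 and 2808 CPM in arterial cells. Glycam1 made up 2019 CPM of it in control members and 7091 CPM in control arterial cells, and its part in the result was not tested. Mural genes summed to 315, 251 and 42.5 CPM in arterial cells, below the members in each library, and their part in the result was not tested. The capillary (0 of 8), BMP (0 of 12), flow (0 of 7), barrier (0 of 10), addressin (0 of 4) and immediate early (0 of 10) lists had no gene called. Of the 34 called genes, 33 were also called with the 4-gene choice and 19 without possible doublets. Without the library term edgeR called 0 genes in either direction, with 0 at an adjusted and 185 at an unadjusted p under 0.05, and DESeq2 called 8 higher and 10 lower. Genes called against both comparison populations were Acta2, Ckb, Efhd1, Pi16, Slc6a6, Tgfb2 and Tppp3 (7 higher) and AW112010, Cyp26b1, Sult1a1 and Tnfsf10 (4 lower). Acta2 was unevenly spread over the members: its 65, 716 and 21 UMIs lay in 10, 30 and 2 members, with up to 23, 116 and 20 in 1 cell, and 60 of those of the control lay in members at the threshold of 4 UMIs.

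**Figure D3:**
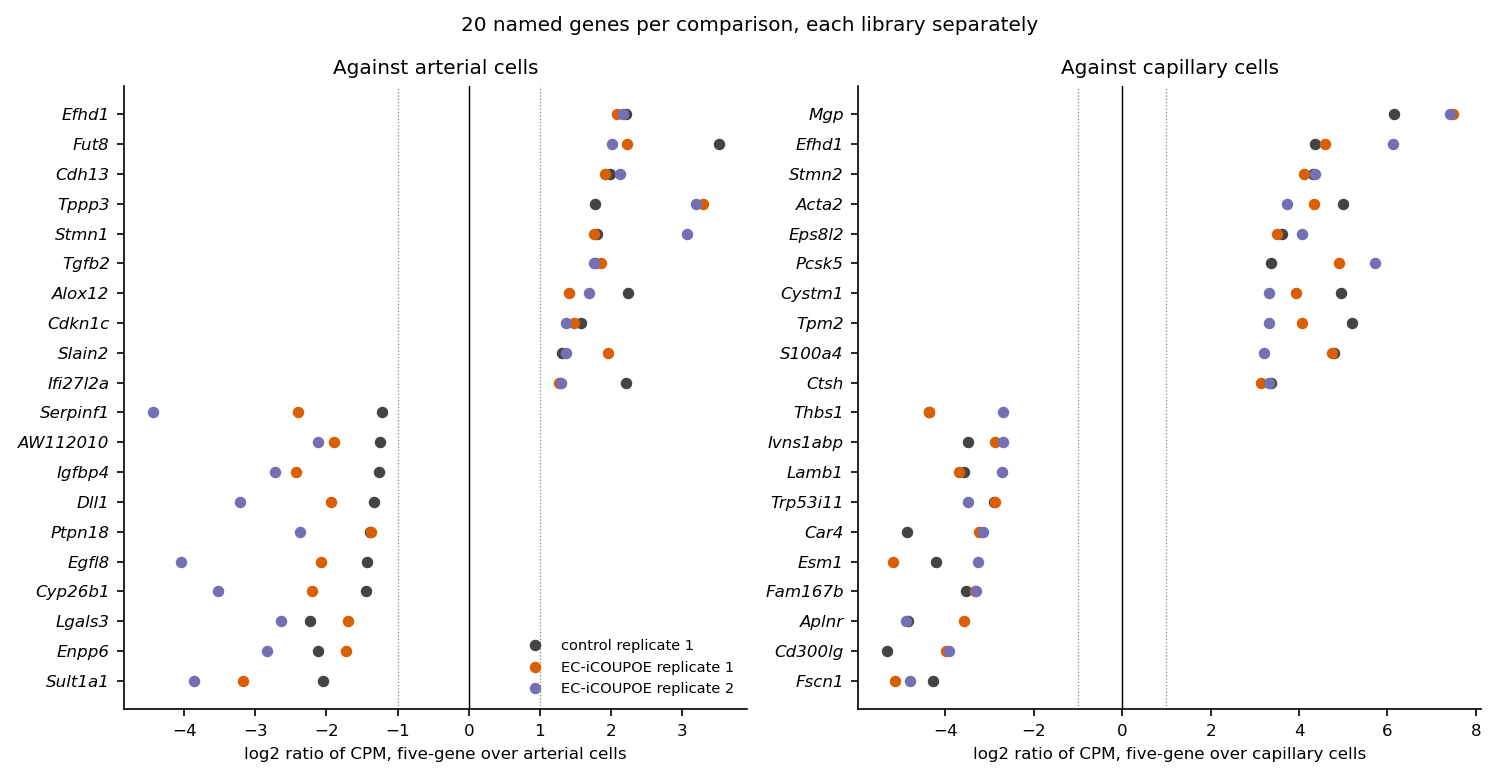
Log2 ratios of 20 named genes in the members against arterial cells and against capillary cells, 1 point for each library, with dotted lines at a 2-fold difference. Mgp, Stmn2 and the other arterial genes have positive ratios to capillary cells in each library, and Mgp averaged 0.01 against arterial cells.

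The share of gated cells that met the rule was 2.71% (95% Clopper-Pearson interval 2.11 to 3.43), 2.30% (1.83 to 2.84) and 5.18% (3.87 to 6.77). The 2 EC-iCOUPOE libraries lay on either side of the control at this threshold. At 6 UMIs both lay above it, with 0.689%, 1.25% and 3.002%, so the direction depended on the threshold. With each cell thinned to 1000 UMIs and a threshold of 2 UMIs the shares were 4.05%, 2.13% and 4.66%, and with the 4-gene choice 2.71%, 1.16% and 4.04%.

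To describe the members under COUP-TFII overexpression, genes at a mean of at least 50 CPM were compared by size, since cells are not replicates. Of 3229 genes, 120 were at least 2-fold higher in both EC-iCOUPOE libraries than in the control (3.72%) and 95 at least 2-fold lower (2.94%). With the 4-gene choice the counts were 128 (3.97%) and 84 (2.61%) of 3221. Of the 120, 94 were also higher with the 4-gene choice, 95 without possible doublets, and 39 were 2-fold higher in capillary cells as well, 50 in the other gated cells and 49 in cells of sufficient quality outside the endothelial gate. Of the 95 lower genes these numbers were 69, 65, 22, 21 and 20. The counting intervals of both EC-iCOUPOE libraries left out no change for 88 of the 120 higher and 82 of the 95 lower genes. The edgeR test of 2 libraries against 1 called 0 of 4362 genes in the members, with 172 at an unadjusted p under 0.05, and 46 genes with the 4-gene choice, with the lone control assumed to vary like the EC-iCOUPOE libraries. Against 1 EC-iCOUPOE library at a time, 259 genes were higher and 350 lower without replicate 1, and 262 and 297 without replicate 2. The sex make-up of the members differed between libraries, with 48, 28 and 26 cells that had Xist UMIs only and 3, 30 and 17 with Y-linked UMIs only, and within cells with Xist UMIs only 173 genes were higher and 114 lower.

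The Notch pathway list was lower in the EC-iCOUPOE members by this measure of size: 5 of 10 genes were at least 2-fold lower and 0 higher, with a median log2 ratio of -1.07 beside -0.03 over all genes. Hey1 measured 313, 40.7 and 82.1 CPM, highest in the control, with log2 ratios of -2.94 [-3.81, -2.16] and -1.93 [-2.96, -1.03]. The endothelial Notch ligand Dll4 measured 135, 12.0 and 54.8 CPM (-3.50 and -1.30), and Jag2, another ligand, 183, 69.4 and 75.3 CPM (-1.40 and -1.28). The guidance receptor Unc5b, at 33, 3 and 0 UMIs, had log2 ratios of -4.47 and -2.95, the second against the limit of 3 UMIs, and Nrarp, a feedback target, had -1.24 and -1.08. Jag2 and Nrarp were no longer 2-fold lower with the 4-gene choice. Hey1 and Unc5b were at -2.42 and -1.29 and at -3.63 and -3.16 in capillary cells.

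Of the addressin genes, Nkx2-3 stayed within a factor of 2 at 361, 254 and 342 CPM (-0.51 and -0.079), and St6gal1 had 2, 2 and 3 UMIs, too few for a ratio. Madcam1 measured 612, 560.0 and 623 CPM, nearly level across the libraries. In the control, however, 2 members of 9718 and 9671 UMIs held 122 of the 127 Madcam1 UMIs, together with 394 of 419 Glycam1 and 117 of 132 Ccl21a UMIs, which are transcripts of high endothelial venules. Madcam1 UMIs were found in 7 of 67, 34 of 83 and 19 of 50 members. Without the 2 cells Madcam1 was at 26.6, 560.0 and 623 CPM, with log2 ratios of 4.40 and 4.55, so its direction rests on 2 control cells. In capillary cells the log2 ratios of Madcam1 were 0.84 and 1.38.

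Of the venous list 3 of 8 genes were higher, Nr2f2, the clotting factor carrier Vwf at 139.7, 675 and 301 CPM (2.27 and 1.11) and the venous ephrin receptor Ephb4 at 67.5, 172 and 185 CPM (1.35 and 1.45), and 2 lower, Glycam1 and Ccl21a, which rest on the 2 cells above. Vwf was not 2-fold higher in both with the 4-gene choice. In the arterial list Eln was higher at 246, 562 and 650.2 CPM (1.19 and 1.40) and Sema3g lower at 328, 127 and 123 CPM (-1.37 and -1.41) of 13. Of the capillary list Rgcc was higher at 67.5, 172 and 274 CPM (1.35 and 2.02), 1 of 7 genes. The BMP list had 0 of 12 past 2-fold in both, as had barrier genes (0 of 10) and mural genes (0 of 4). Of the 10 immediate early genes Hspa1b was higher and Egr1 lower. Slco2a1, a prostaglandin transporter, was higher at 173, 749 and 452 CPM (2.11 and 1.38), Enpp2, which makes lysophosphatidic acid, lower at 299, 47.9 and 61.6 CPM (-2.64 and -2.28) and Dkk2 lower at 169, 55.0 and 54.8 CPM (-1.62 and -1.62).

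The other 4 rule genes are given as a description only. Bmp2 UMIs counted toward the threshold in the EC-iCOUPOE members and not in the control members, so the rule itself bears on these ratios. The log2 ratios of Alpl were -3.05 and -1.24, and -2.45 and -1.01 with the 4-gene choice. Those of Ssu2 were -1.87 and -0.36, and -1.20 and -0.14 with the 4-gene choice. Nebl stood at 0.21 and 1.10, against 0.65 and 1.14, and Tmem158 at -0.25 and 0.73, against 0.41 and 0.98.

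Lox, which crosslinks collagen and elastin, had 2, 58 and 33 UMIs in the members (3.85 and 4.55), against 0.19 and 1.32 in capillary cells. Tcea1, a transcription elongation factor, had 2, 34 and 11 UMIs (3.08 and 2.97), against -0.19 and -0.20. Neither gene was called by the edgeR interaction test against capillary cells (adjusted p 0.809 and 0.303). Ftl1-ps1, a pseudogene, was at 4.63 and 4.80 in members and 5.07 and 5.19 in capillary cells, and Rpl29 at 3.70 and 4.16 and 3.30 and 3.62. Pttg1, securin, was at 4.31 and 4.31 in members and 3.35 and 4.02 in capillary cells, and Pcp4l1 at 4.57 and 3.78 and 3.06 and 2.92. Ly6a, a surface antigen of endothelium and progenitors, measured 882, 6232 and 7822 CPM (2.82 and 3.15), against 1.90 and 2.22 in capillary cells, with members of both EC-iCOUPOE libraries far above the control. Of the lower genes, Kcne3 (31, 3 and 1 UMIs), Col8a1 (49, 13 and 4 UMIs), Cytl1 (61, 10 and 0 UMIs) and Chd3 (36, 10 and 1 UMIs) were spread over cells, while Gal and Cartpt had their 67 and 66 control UMIs in 1 cell, and 5 of the 95 had most of their control UMIs in 1 cell. Serpina1b, at 143, 1 and 2 UMIs, was also lower in cells outside the endothelial gate (-5.68 and -6.88).

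**Figure D4:**
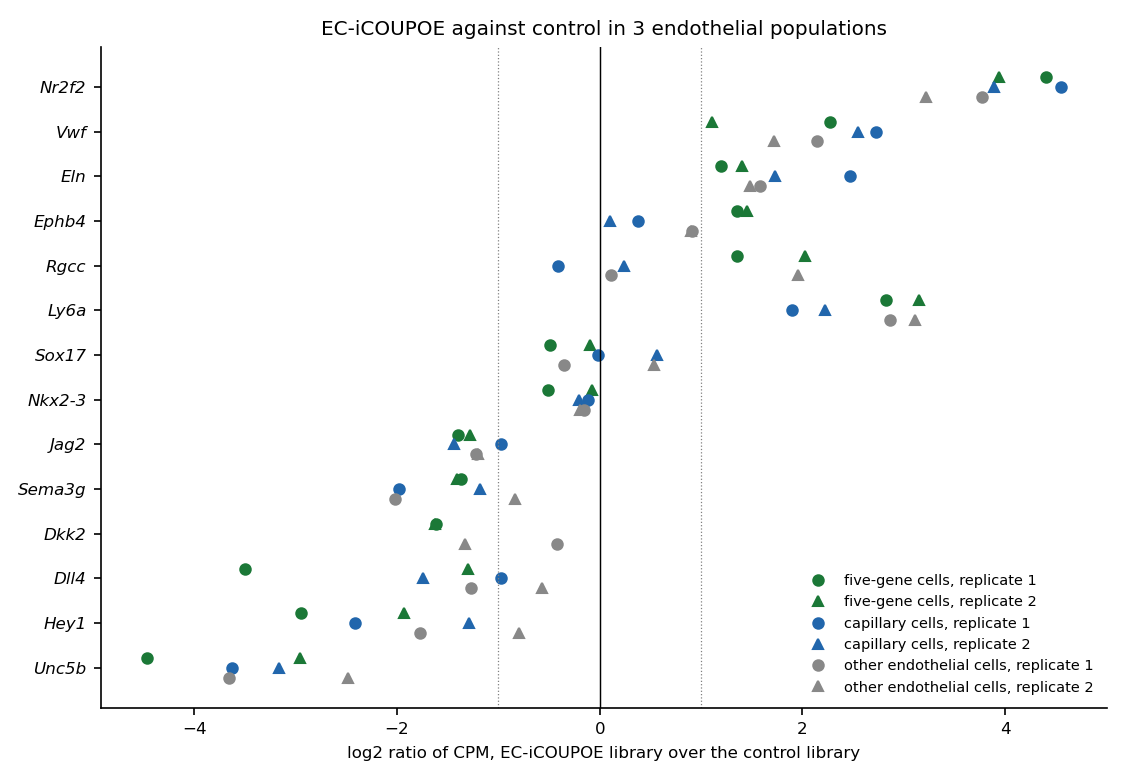
Log2 ratios of EC-iCOUPOE replicate 1 (circles) and replicate 2 (triangles) to the control for 14 genes in the members, capillary cells and other endothelial cells. Nr2f2 is far above 0 and Hey1 and Unc5b below 0 in each population.

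Whether the genotype difference was unlike that of capillary cells was tested by the interaction term in edgeR, with 1 residual degree of freedom. That spread comes from the 2 EC-iCOUPOE libraries alone, and the test assumes that the lone control library varies like them. Of 6591 genes, 22 were called (0.334%), 3 higher and 19 lower, and 396 had an unadjusted p under 0.05. The immediate early genes, which dissociation of tissue is known to induce, made up 7 of them, out of 10 tested. Fos measured 4698, 4427 and 5420.3 CPM in members and 1202, 3141 and 4993 CPM in capillary cells. Members were high in each library and capillary cells low in the control only, giving an interaction of -1.66 (adjusted p 0.00097). Ier2 measured 4192, 1175 and 2299.5 CPM in members and 874, 1285 and 2453 CPM in capillary cells (-2.38, adjusted p 0.0001). The 10 genes summed to 24516, 14866 and 18786 CPM in members, 6123, 11707 and 18836 CPM in capillary and 20623, 11607 and 22463 CPM in arterial cells, and the part of dissociation in the result was not tested.

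**Figure D5:**
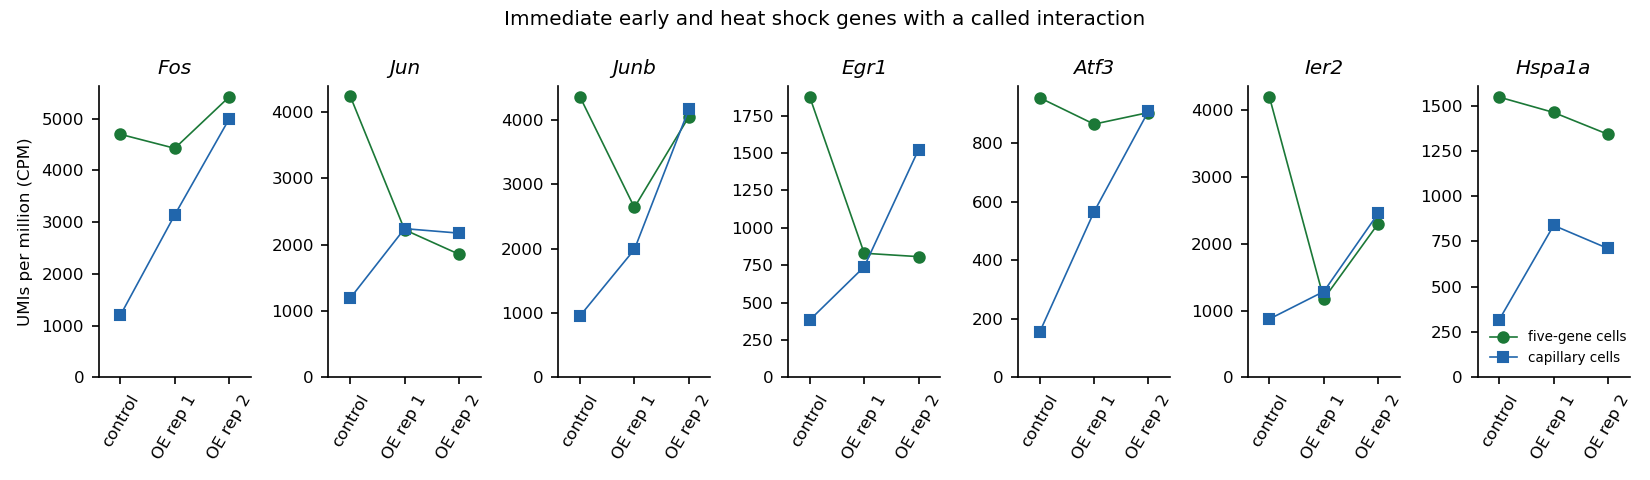
CPM of Fos, Jun, Junb, Egr1, Atf3, Ier2 and Hspa1a in the members and in capillary cells of each library. Capillary cells of the control are lowest for each gene.

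Aqp1, a water channel, measured 260.2, 187 and 267 CPM in members and 1587, 228 and 245 CPM in capillary cells, where the control alone was high, and its interaction was 2.48 (adjusted p 0.00505). Clu, clusterin, measured 1576, 821 and 1465 CPM against 1209, 128 and 119.9 CPM (2.68, adjusted p 0.00194). For both genes the EC-iCOUPOE capillary cells lay far below the control capillary cells, while the members differed less between libraries. Of the 22 genes, 21 were called with the 4-gene choice, 20 without possible doublets and 20 without the 2 Glycam1-rich cells, and with arterial cells in place of capillary cells 1 gene was called, with 111 at an unadjusted p under 0.05. Madcam1 was not called (-1.14). Its interaction turned to 3.37 without the 2 cells, which held 122 of the 127 Madcam1 UMIs of the control members. Those cells were left out after seeing the data, so the change follows from the choice and is no test.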

How the data were processed

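Gene by cell matrices of UMI counts were deposited for the 3 libraries. The authors aligned reads to mm10 with Cell Ranger 3.0.2, per the labels and the file headers of the control and EC-iCOUPOE replicate 2, while the header of EC-iCOUPOE replicate 1 gives 3.1.0; the deposited counts are not normalized. The labels name both a version 3 platform and a version 2 kit. No cell annotation was used, so populations were rebuilt from UMI rules, and names may differ from those of the study. The members, lists and rules were chosen with earlier results of these data known. Of 31053 gene rows, symbols that occurred more than once were summed, leaving 31017 genes. The named genes are the rule genes, the addressin genes, the 10 higher and 10 lower genes with the largest smallest ratio in each comparison, and called list members.

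UMIs were summed per library and population and tested with edgeR 4.0.16 (quasi-likelihood, TMM, filterByExpr, library as a block, Benjamini-Hochberg adjustment) under R 4.3.3, with DESeq2 1.42.0 as an alternative. Rule, gate and sex-linked genes were left out of counts of calls. Genotypes were compared by size, at a mean of at least 50 CPM over the libraries, 2-fold in both, with a library at 0 set to 3 UMIs; intervals are exact at 95% and cover counting error only. Possible doublets were gated cells with at least 2 UMIs of a lymphocyte, fibroblast, mural, lymphatic, epithelial, glial or erythroid list, or over 3 times the median UMIs of the members of their library; no doublet caller was run. On simulated counts the capillary comparison called 163 of 200 genes changed 4-fold and 2 of 5335 unchanged ones, and the size rule 135 of 137 and 25 of 3002. The counts for the size rule were simulated with counting error only and no spread between libraries. They therefore do not show how often that rule calls unchanged genes when libraries differ. Scripts ran under Python 3.11.15 with pandas 2.3.3, scipy 1.17.1 and numpy 2.4.6. Leaving out libraries, other thresholds and scalings were tried.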

Additional observations from a re-analysis of the deposited data

Results flagged for a closer look

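For 22 genes the difference between EC-iCOUPOE and control was unlike in the members and in capillary cells by the edgeR interaction test, whose log2 values are given in brackets and whose spread comes from the 2 EC-iCOUPOE libraries alone. Of the 10 genes of the immediate early list, Fos (-1.66), Jun (-1.95), Junb (-2.01), Egr1 (-2.61), Atf3 (-2.30), Ier2 (-2.38) and Hspa1a (-1.44) were lower, that is, they stood higher in the control members, relative to capillary cells, than in the EC-iCOUPOE members. Outside that list, Jund (-1.23), Ier3 (-2.08), Btg2 (-2.43), Zfp36 (-2.19), Nr4a1 (-3.39), Socs3 (-1.45), Gadd45g (-1.63), Dnajb1 (-2.37), Tsc22d1 (-1.72) and H3f3b (-0.99) were also lower. Glycam1 (-9.03) and Ccl21a (-4.63) were not called once the 2 control members rich in these transcripts were left out. Aqp1 (2.48), Clu (2.68) and Ly6a (0.92) were higher.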

How the results depend on the processing

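Across the 12 alternatives run for each gene, the genotype log2 ratio of Nr2f2, 4.17, ran from 1.08 in cells with Y-linked UMIs only to 6.25 at 6 UMIs, that of Hey1, -2.44, from -3.96 at 6 UMIs to -1.93 without EC-iCOUPOE replicate 1, and that of Bmp2, a rule gene at 5.84, from 0.72 in cells with Y-linked UMIs only to 6.496 at 3 UMIs. Others, none of them 2-fold in both libraries, changed sign: Madcam1 from -0.05 to 0.03 without EC-iCOUPOE replicate 1, 0.74 at 3 UMIs, 4.47 without Glycam1-rich members, 4.26 without possible doublets and 4.97 at 6 UMIs, Nebl from 0.65 to -1.03 and Tmem158 from 0.24 to -0.89 in cells with Y-linked UMIs only, Tmem158 to -0.25 without EC-iCOUPOE replicate 2, and Nkx2-3 from -0.29 to 0.13 at 6 UMIs; St6gal1 changed sign on 2 to 3 UMIs a library. Against arterial cells, DESeq2 called 8 genes higher and 10 lower, the fit with no library term 0 and 0, a threshold of 3 UMIs 9 lower, and leaving out possible doublets 13 lower; leaving out 1 library gave 12 to 31 higher and 13 to 31 lower, with 31 higher without EC-iCOUPOE replicate 2, 31 lower without the control and 13 lower without EC-iCOUPOE replicate 1. Against capillary cells the fit with no library term called 67 higher and 49 lower, and leaving out 1 library gave 93 to 172 and 79 to 145. Between genotypes, a mean of at least 20 CPM gave 317 higher and 303 lower, a threshold of 6 UMIs 262 and 226, cells with Xist UMIs only 173 and 114, cells with Y-linked UMIs only 37 and 2104 (the control has 3 such cells), edgeR 0 and 0, and a single EC-iCOUPOE library 259 to 262 higher and 297 to 350 lower, 259 and 350 without replicate 1 and 262 and 297 without replicate 2, so that lower genes then outnumbered higher ones. The interaction called 51 genes with no filter on low counts, 38 with the 4-gene choice, chosen after seeing the data, 35 without Glycam1-rich members, also chosen after, and 1 with arterial cells. Leaving out a library was not run for the interaction, which has 1 residual degree of freedom. The share of gated cells in the control moved to 5.51% at 3 UMIs, 0.689% at 6 and 4.05% after thinning, in EC-iCOUPOE replicate 1 to 3.90%, 1.25%, 1.79% without possible doublets and 1.16% with the 4-gene choice, and in replicate 2 to 3.002% at 6 UMIs. Causes were not tested. No paired analysis was possible because the genotypes share 1 replicate number only; the comparisons with arterial and capillary cells had the library as a term. Depth limits the arterial comparison, at 42.5 CPM for 1 UMI in EC-iCOUPOE replicate 2, and 1 control library leaves the spread between controls unknown.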
